A study of Mus musculus with 10 samples.

Results

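The collagens are a family of secreted and membrane proteins, here read as messenger RNA in the posterior wall of the mouse left ventricle. A collagen gene was taken when its row named a single symbol made of Col, a number, the letter a and a number, and when its mean over all libraries was at least 1 normalized count, which left 34 genes of the 14611 rows tested and the 24160 rows in all. Of the 34 genes, 8 encode fibrillar chains, 8 encode basement membrane chains and 18 encode other collagens. A further 9 collagen genes fell under that minimum with at most 7 reads each over all libraries, namely Col2a1, Col6a4, Col6a5, Col9a1, Col10a1, Col11a1, Col17a1, Col19a1 and Col24a1. Col9a1 among them had 0 of 57637707 reads, and a count of 0 allows up to 3 reads in that total, a limit that covers counting error only. Col7a1 shares its row with a microRNA and was left out.

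The tested mice were Mc4r knockouts, which lack the melanocortin 4 receptor, a G-protein-coupled receptor through which the hypothalamus controls feeding, and they gave 6 libraries. Wild type (WT) mice gave 4 libraries. The mice of both groups were C57BL6/J, came from matings of heterozygotes, were 30 weeks old and were kept at 24 °C, and the study asks how the ventricle differs without the receptor, under a title that names dilated cardiomyopathy. The labels name no tissue-specific Cre and no pooling, and whether every library came from its own mouse is not stated. The p-values here therefore rest on the spread from sample to sample, which may be partly technical.

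The libraries held between 4145033 reads (WT replicate 3) and 6425785 reads (WT replicate 4) assigned to genes, and the collagens took between 0.163% of them (WT replicate 3) and 0.243% (knockout replicate 3). Each value is, as far as the values show, a read count times a factor for its library, and such values are called normalized counts. Mc4r itself had 4 reads in all knockout libraries together and 2 in the WT libraries, so it checks no label at this depth, and 0 of the 34 collagen genes lie on its chromosome, 18. The defining markers of ventricular muscle summed to between 389610 and 438200 normalized counts in knockout libraries and between 408350 and 459720 in WT libraries. Libraries of both groups stood apart. In knockout replicate 5 the atrial markers summed to 3155 normalized counts, against at most 1338 in any other library. That 1338, in WT replicate 4, was nearly all Nppa (1332). The atrial marker Myl7 stood at 720 in knockout replicate 5, 134 in knockout replicate 6, 63.0 in knockout replicate 2 and 48.1 in WT replicate 1. Elsewhere Myl7 reached at most 8.71. In WT replicate 2 the lymphocyte markers summed to 453, against at most 31.7. There Xist, the RNA of the inactive X chromosome, stood at 134, against at most 7.92. WT replicate 3 was the shallowest library and had the smallest collagen share. Their part in the results was not tested beyond the values given without them.

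A collagen molecule is made of chains wound into a helix in which glycine, the smallest amino acid, recurs in a fixed triplet rhythm, because only glycine has room at the axis of the helix. Most fibrillar collagens have an unbroken helix. Fibrillar collagens pack side by side into the fibrils that give the heart wall its tensile strength, with types I and III the main ones, made in the heart mostly by fibroblasts. Collagen IV has a helix with interruptions and forms the sheet-like network of the basement membrane around each cardiomyocyte and under the endothelium. The other classes coat fibrils, form beaded filaments beside the basement membrane or stay in the cell membrane.

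The coding sequences of the 34 genes differ between the fibrillar and the collagen IV genes in their glycine triplets, which the rule did not use. A triplet was counted where 3 codons in a row begin with a glycine codon (GGN), and a run was 3 or more such triplets without a break. In the 8 fibrillar genes the longest run held between 217 triplets (Col27a1) and 344 triplets (Col3a1), with 2 to 4 runs per gene. Col27a1 stood apart in this, as the next shortest was that of Col5a3 at 337 triplets. In the 6 collagen IV genes the longest run held 39 to 66 triplets, and 426 to 444 triplets were spread over 23 to 27 runs. Between 21 and 33 coding exons of each fibrillar gene were exactly 54 bases long, which is the length of 6 triplets, against 1 to 3 of each collagen IV gene. The other collagens were mixed in this, with 0 to 28 such exons, and Col22a1, at 28, fell in the fibrillar range. The exons below (GRCm38, the assembly behind mm10; GENCODE M21 gene models, coding strand) show both layouts, and the capitals mark the glycine codons in each triplet run.
Col1a1 coding exon 8, chr11:94939904-94939957, plus strand: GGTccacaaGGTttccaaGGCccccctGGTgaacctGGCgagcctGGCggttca
Col1a2 coding exon 8, chr6:4515481-4515534, plus strand: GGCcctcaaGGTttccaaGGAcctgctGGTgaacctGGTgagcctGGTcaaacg
Col3a1 coding exon 6, chr1:45325360-45325413, plus strand: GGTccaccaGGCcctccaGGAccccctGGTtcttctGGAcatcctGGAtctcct
Col14a1 coding exon 38, chr15:55472927-55472980, plus strand: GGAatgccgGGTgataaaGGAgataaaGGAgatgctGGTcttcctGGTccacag
Col4a1 coding exon 9, chr8:11244486-11244569, minus strand: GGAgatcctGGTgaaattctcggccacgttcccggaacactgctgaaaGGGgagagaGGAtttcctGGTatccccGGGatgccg
Col4a2 coding exon 19, chr8:11415926-11416075, plus strand: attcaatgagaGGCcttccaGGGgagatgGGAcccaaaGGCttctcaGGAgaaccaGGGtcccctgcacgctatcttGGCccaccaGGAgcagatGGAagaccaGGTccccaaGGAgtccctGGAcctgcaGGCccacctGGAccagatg
The exons of Col1a1, Col1a2, Col3a1 and Col14a1 hold 6 glycine triplets each with no break. In the exon of Col4a1 a stretch of 10 codons separates the triplet runs, and in that of Col4a2 a stretch of 4 codons does. Col14a1, whose helix is short beside that of a fibrillar chain, had a longest run of 32 triplets and 83 triplets in all.

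**Figure D1:**
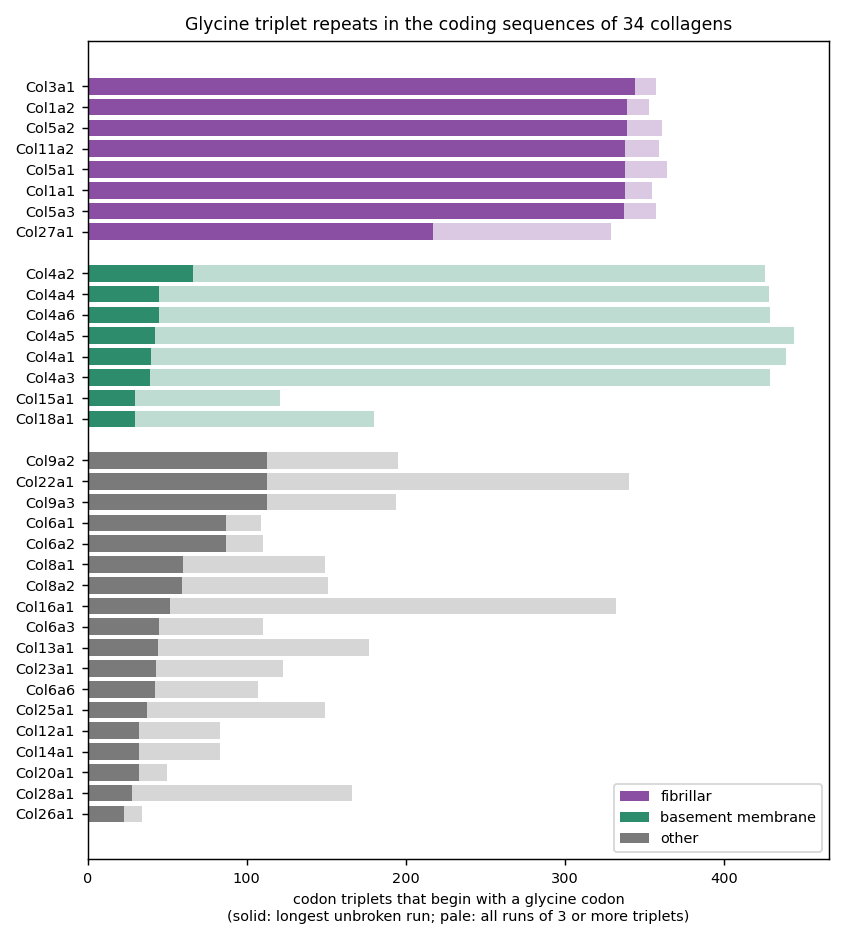
Glycine triplet repeats in the coding sequence of each of the 34 collagen genes, in triplets. Solid bars give the longest unbroken run and pale bars all runs of 3 or more triplets. In the 8 fibrillar genes the longest run reaches 217 to 344 triplets, while in the 6 collagen IV genes it stays between 39 and 66.

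Set per kilobase of transcript, so that genes can be compared, basement membrane chains led the collagens of the ventricle in both genotypes. Col4a1, the α1 chain of the collagen IV network, had 469.9 ± 78.5 normalized counts per kilobase in knockout libraries and 440.0 ± 37.0 in WT libraries (SD, n = 6 and 4). Its partner Col4a2, the α2 chain, had 386 ± 45.1 in the knockout and 353 ± 39.1 in WT. The most abundant fibrillar chain was Col3a1, which alone makes collagen III, with 194 ± 44.9 normalized counts per kilobase in the knockout and 176 ± 25.7 in WT. Col6a1, a chain of the beaded filaments of collagen VI, followed at 143 ± 12.6 in the knockout and 126 ± 8.13 in WT. Col1a2 (134 ± 14.5 in the knockout, 113 ± 21.2 in WT) and Col15a1 (129 ± 16.3 in the knockout, 111 ± 15.1 in WT) came after it and lay within each other's spread, as did Col6a2. Col1a1 stood lower, at 72.1 ± 16.7 in the knockout and 56.0 ± 8.91 in WT. The scale below these was long, and the lowest of the 34 genes, Col9a2, averaged 0.449 normalized counts per kilobase in the knockout and 0.237 in WT. As a share of all collagen levels per kilobase, basement membrane chains made up 53.8% in the knockout and 55.4% in WT, fibrillar chains 25.9% and 25.0%, and the other classes 20.3% and 19.5%, with the knockout given first each time.

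**Figure D2:**
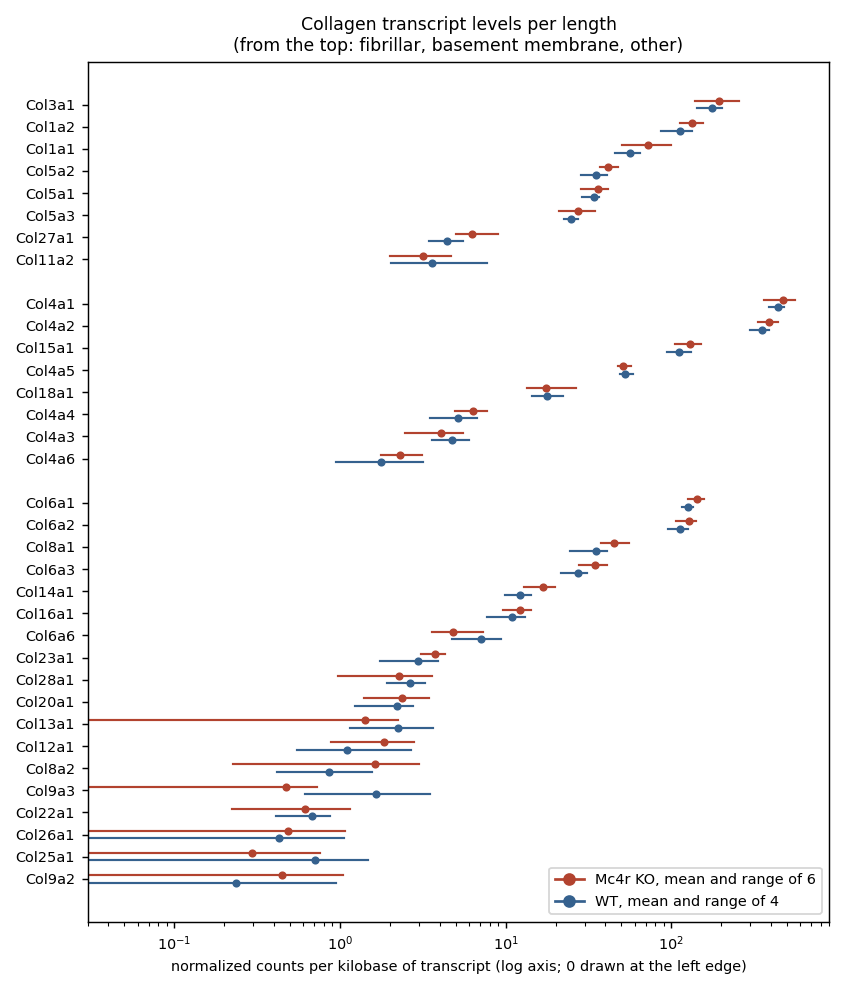
Transcript levels of the 34 collagen genes in normalized counts per kilobase of transcript, on a log axis. Points are the mean and lines the range of the 6 Mc4r knockout libraries (above) and the 4 WT libraries (below). Col4a1 and Col4a2 are highest, and the ranges of the genotypes overlap in every gene.

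Between the genotypes, no collagen gene passed the test. By limma on log2(normalized count + 1), 0 of 34 genes had a Benjamini-Hochberg adjusted p below 0.05 over all tested rows, against 67 of 14611 rows (0.459%; 0.287% higher and 0.171% lower in the knockout), and the smallest adjusted p was 0.202. The count models, on the reads of 9 libraries, tested 33 of the genes. By edgeR 0 of 33 passed, against 0.13% of all rows, and 8 had an unadjusted p below 0.05, against 1458 of all 14604 rows. DESeq2 gave an adjusted p for 16 of the 33, of which 0 passed, against 0.644% of all rows. By DESeq2 9 of the 33 had an unadjusted p below 0.05, against 1066 of all 14604 rows. The knockout and WT libraries overlapped in each of the 34 genes, while 2.28% of all rows had no overlap (1.34% with all knockout libraries above and 0.938% with all below the WT libraries). The fitted log2 fold change, knockout over WT, was above 0 for 25 genes and below 0 for 9, that is above 0 for 73.5% of them against 48.4% of all rows. Its median was 0.15 over the 34 genes (0.09 without WT replicate 3) and -0.0055 over all rows. At an unadjusted p below 0.05 stood 11 of the 34 genes (32.4%), 9 higher and 2 lower in the knockout, against 9.6% of all rows (5.19% higher, 4.41% lower). That last count rested on single libraries: it was 4 without WT replicate 3, 6 without knockout replicate 3 and 7 without WT replicate 2. The same was read at a mean of at least 50 normalized counts, which 19 of the 34 collagens and 9164 of the 14611 rows reached. There 8 of 19 collagens (42.1%) and 10.8% of 9164 rows had an unadjusted p below 0.05. In bulk tissue, fewer cells of a type and less RNA per cell cannot be told apart.

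**Figure D3:**
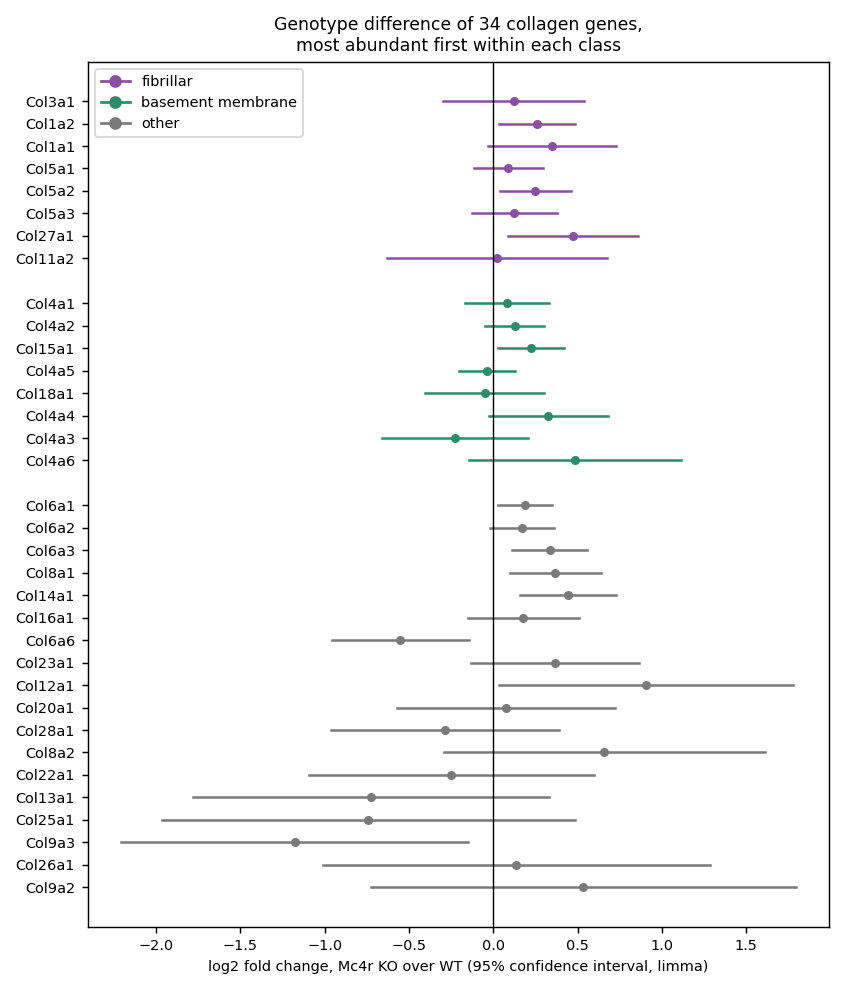
Log2 fold change of each of the 34 collagen genes, Mc4r knockout over WT, with its 95% confidence interval from limma; genes are ordered by abundance within each class. The points of the 8 fibrillar genes lie to the right of 0, while the intervals of Col3a1, Col1a1, Col5a1, Col5a3 and Col11a2 cross it. Of the 34 genes, 0 passed an adjusted p of 0.05.

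Of the 8 fibrillar genes, 8 had a fitted log2 fold change above 0, against 48.4% of all rows, Col11a2 only just and against the order of its means. The test was passed by 0, against 0.459% of all rows. An unadjusted p below 0.05 was met by 3 (37.5%), against 9.6% of all rows. The median log2 fold change was 0.19. Col3a1 (chromosome 1, 45311538 to 45349706) had a lowest, median and highest value of 776, 1109 and 1432 normalized counts in the knockout libraries, against 1054, 946, 795 and 1122 in the WT libraries. The WT values lay inside the knockout range, and the log2 fold change was 0.12 ± 0.18 (SE; 95% confidence interval -0.30 to 0.54, limma adjusted p = 0.892). It ranged from 0.02 (without WT replicate 3) to 0.21 (without knockout replicate 5) when 1 library was left out.

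Col1a2 and Col1a1 encode the chains of collagen I. Col1a2 (chromosome 6, 4505618 to 4541543) ran over 605, 726 and 825 normalized counts (lowest, median, highest) in the knockout and stood at 715, 569.6, 461 and 673 in WT. WT replicates 2 and 3 lay under all knockout libraries and the other WT libraries lay among them. The log2 fold change was 0.26 ± 0.11 (SE; limma, adjusted p = 0.433), and 0.14 without WT replicate 3. Col1a1 (chromosome 11, 94936224 to 94953042) ran over 299, 427 and 592 normalized counts in the knockout and stood at 383, 307, 270.0 and 368 in WT. WT replicate 3 alone lay under the lowest knockout library, with a log2 fold change of 0.35 ± 0.17 (SE; limma, adjusted p = 0.582).

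Col5a2, a chain of collagen V, which co-assembles with collagen I and limits the width of fibrils, ran over 247, 271 and 316 normalized counts in the knockout and stood at 255, 189.6, 216 and 272 in WT. Again WT replicates 2 and 3 lay under the knockout range, and the log2 fold change was 0.25 ± 0.10 (SE; limma, adjusted p = 0.396), and 0.16 without WT replicate 2. The other collagen V chains had smaller differences, 0.09 ± 0.10 for Col5a1 and 0.12 ± 0.12 for Col5a3 (log2, SE). Col27a1, a fibrillar chain best known from cartilage, ran over 38.2, 43.1 and 68.9 normalized counts in the knockout and stood at 42.3, 33.4, 26.3 and 33.5 in WT. WT replicate 1 fell within the knockout values and the other WT libraries lay below them (log2 fold change 0.47 ± 0.19, SE; limma, adjusted p = 0.366). Col11a2, a collagen XI chain, ran over 12.1, 19.1 and 28.4 normalized counts in the knockout and stood at 15.4, 46.9, 12.5 and 12.3 in WT, where replicate 2 was far above the rest. Its log2 fold change was 0.02 ± 0.32 (SE).

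Col3a1 and Col5a2 are neighbours on chromosome 1, placed tail to tail with 24624 bases between them. Within a library the chains can be set against each other, which takes out what all of them share. These ratios and their test, an exact two-sided permutation test over all 210 orders of the genotype labels, were chosen after the values had been seen. In all 11 ratios were tested, and 0 passed Benjamini-Hochberg adjustment over the 11. The smallest p this design allows is 0.00476, which a lone ratio would bring to 0.0524 after adjustment. Col3a1 over Col1a1, per kilobase, was 2.70 ± 0.257 in the knockout (range 2.28 to 2.92) and 3.15 ± 0.157 in WT (range 2.94 to 3.29), so the libraries did not overlap. The log2 difference was -0.23 (exact permutation p = 0.0238, adjusted p = 0.0873; 0.0437 without knockout replicate 5). Col1a1 over Col1a2 was 0.534 ± 0.0882 in the knockout and 0.498 ± 0.0208 in WT (exact permutation p = 0.581).

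Of the 8 basement membrane genes, 5 had a log2 fold change above 0 (62.5%, against 48.4% of all rows) and 3 below. At an unadjusted p below 0.05 stood 1 (12.5%), close to the 9.6% of all rows, and 0 passed the test, against 0.459% of all rows. The median log2 fold change was 0.10, the same as over the 6 collagen IV genes alone, and 0.04 without WT replicate 3. Col4a1 (chromosome 8, 11198423 to 11312889) ran over 2402, 3188 and 3693 normalized counts in the knockout and stood at 2947, 2933, 2585 and 3178 in WT. Its WT libraries lay within the knockout range, and the log2 fold change was 0.08 ± 0.11 (SE; 95% confidence interval -0.17 to 0.33, limma adjusted p = 0.881). It ranged from 0.03 (without WT replicate 3) to 0.15 (without knockout replicate 5) when 1 library was left out. Col4a2 (chromosome 8, 11312805 to 11449287) ran over 2161, 2470.4 and 2849 normalized counts in the knockout and stood at 2261, 2516, 1933 and 2400.0 in WT. WT replicate 3 alone lay under the knockout range, with a log2 fold change of 0.13 ± 0.08 (SE; 95% confidence interval -0.05 to 0.30, limma adjusted p = 0.687), and 0.05 without that library.

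Col15a1 and Col18a1 encode multiplexins, proteoglycan-like collagens whose C-terminal fragments are known as restin and endostatin. Col15a1 (chromosome 4, 47207655 to 47313167) ran over 547, 663 and 776 normalized counts in the knockout and stood at 676, 486, 565 and 568 in WT. WT replicate 2 lay under the knockout range and the other WT libraries inside it, and the log2 fold change was 0.22 ± 0.10 (SE; limma, adjusted p = 0.437), and 0.15 without WT replicate 2. Col18a1 averaged 88.2 ± 24.8 normalized counts in the knockout and 90.5 ± 19.3 in WT (SD), a log2 fold change of -0.05 ± 0.17 (SE).

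The rarer collagen IV chains form other networks, α3 with α4 and α5 in the kidney's filter, and α5 with α6. Col4a5 averaged 336 ± 21.9 normalized counts in the knockout and 345 ± 26.1 in WT (SD), with a log2 confidence interval of -0.20 to 0.13. Col4a4 ran over 49.8, 64.3 and 78.3 normalized counts in the knockout and stood at 49.1, 35.2, 55.4 and 67.8 in WT, where replicates 1 and 2 lay under the knockout range (log2 fold change 0.33 ± 0.17, SE; limma, adjusted p = 0.581; 0.16 without WT replicate 2). Col4a3 had 34.8 ± 9.47 in the knockout and 40.4 ± 9.35 in WT (SD), a log2 fold change of -0.23 ± 0.21 (SE). Col4a6 ran over 11.7, 14.9 and 20.7 normalized counts in the knockout and stood at 21.2, 6.32, 6.92 and 12.3 in WT, so that the highest and the lowest library were both WT (0.48 ± 0.31, log2, SE; limma, adjusted p = 0.669; 0.27 without WT replicate 2 and 0.80 without WT replicate 1).

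Collagen IV genes lie in pairs that face away from a shared start. The gene models of Col4a1 and Col4a2 overlap by 85 bases at their 5′ ends and those of Col4a3 and Col4a4 by 114 bases, while Col4a5 and Col4a6 lie 1274 bases apart on the X chromosome. No source used here gives the strand setting of the counting, so reads within those overlaps cannot be assigned with certainty. Col4a1 over Col4a2, per kilobase, was 1.21 ± 0.0786 in the knockout and 1.25 ± 0.0772 in WT (SD; exact permutation p = 0.438). Col4a3 over Col4a4 was 0.641 ± 0.136 in the knockout and 0.971 ± 0.369 in WT, a log2 difference of -0.57 (exact permutation p = 0.0143, adjusted p = 0.0786 over the 11 ratios). Its libraries overlapped, from 0.376 to 0.766 in the knockout and from 0.739 to 1.51 in WT. The highest was WT replicate 2, without which the log2 difference was -0.33 (exact permutation, adjusted p = 0.471).

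**Figure D4:**
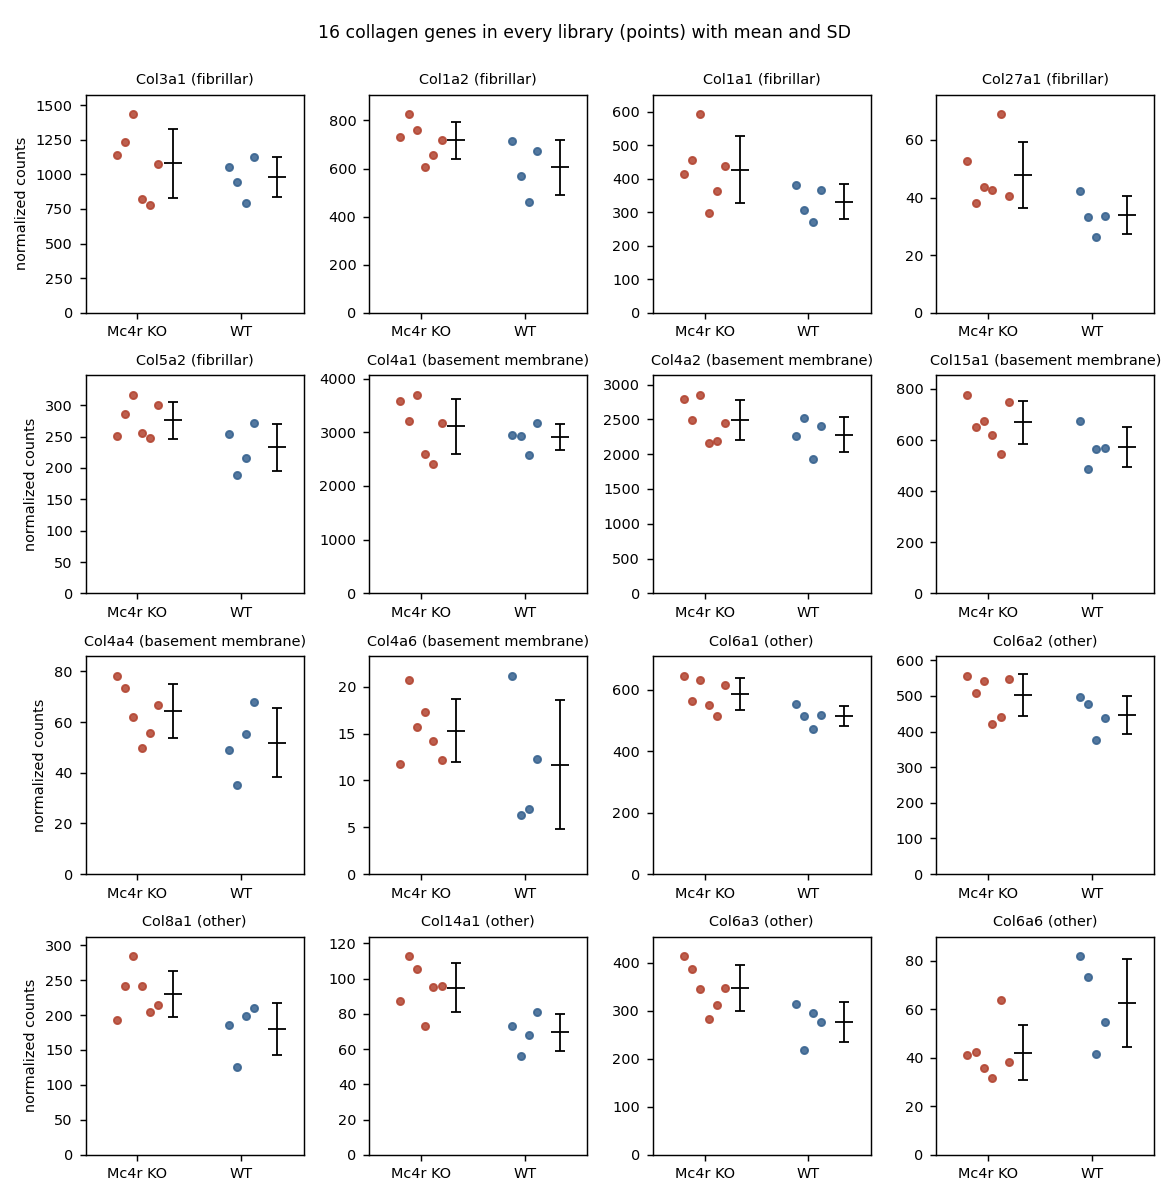
Normalized counts of 16 collagen genes in every library, with the 6 Mc4r knockout libraries left of the 4 WT libraries; points are libraries, and the bar beside them is the mean with its SD. The genotypes overlap in each panel, and Col6a6 is the panel in which the WT mean stands above that of the knockout.

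Of the 18 other collagen genes, 12 had a log2 fold change above 0 (66.7%, against 48.4% of all rows) and 6 below. An unadjusted p below 0.05 was met by 7 (38.9%), 5 higher and 2 lower, against 9.6% of all rows. Past the adjusted threshold stood 0, against 0.459% of all rows. The median log2 fold change was 0.17, and 0.09 without WT replicate 3. Fibril-associated collagens decorate the surface of fibrils. Col14a1, of this class, had the smallest p of the 34 genes (chromosome 15, 55307644 to 55520803). It ran over 73.2, 95.6 and 113 normalized counts in the knockout and stood at 73.1, 56.0, 67.8 and 81.0 in WT. WT replicate 4 alone lay above the lowest knockout library, and the log2 fold change was 0.44 ± 0.14 (SE; 95% confidence interval 0.16 to 0.73, limma adjusted p = 0.202). Col12a1, a relative of Col14a1, averaged 21.3 ± 8.92 normalized counts in the knockout and 12.8 ± 12.0 in WT (SD), where replicate 1 stood at 30.8 and the others at 6.32 to 7.04. Its log2 fold change was 0.91 ± 0.41 (SE; limma, adjusted p = 0.497). The highest Col12a1 values were 32.4 in knockout replicate 5, 30.8 in WT replicate 1, 27.9 in knockout replicate 2 and 26.3 in knockout replicate 6. These are the libraries that held atrial Myl7, and a link was not tested. Col16a1 had a log2 fold change of 0.18 ± 0.16 (SE). The remaining fibril-associated genes, Col9a2, Col9a3, Col20a1 and Col22a1, were rare. Among them Col9a3 averaged 1.35 ± 0.822 normalized counts in the knockout and 4.68 ± 3.63 in WT (SD; log2 fold change -1.18 ± 0.50, SE; limma, adjusted p = 0.427).

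Collagen VI forms beaded filaments that link basement membranes to the fibrils around them, from the α1 and α2 chains together with α3 or, in its place, α6. Col6a1 (chromosome 10, 76708792 to 76726044) ran over 515, 590.1 and 646 normalized counts in the knockout and stood at 555, 515, 473 and 517 in WT. Its WT libraries all lay below the knockout median, with a log2 fold change of 0.19 ± 0.08 (SE; limma, adjusted p = 0.414). Col6a2, on the same chromosome, ran over 420.0, 526 and 557 normalized counts in the knockout and stood at 497, 477, 375 and 438 in WT (0.17 ± 0.09, log2, SE; limma, adjusted p = 0.597; 0.089 without WT replicate 3). Col6a3 (chromosome 1, 90766860 to 90844001) ran over 282, 347 and 413 normalized counts in the knockout and stood at 315, 218, 295 and 276 in WT. WT replicates 2 and 4 lay under the knockout range, and the log2 fold change was 0.33 ± 0.11 (SE; 95% confidence interval 0.11 to 0.56, limma adjusted p = 0.231).

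Col6a6 (chromosome 9, 105689417 to 105828246) stood the other way from the rest of collagen VI. It ran over 31.5, 39.7 and 63.8 normalized counts in the knockout and stood at 81.8, 73.1, 41.5 and 54.6 in WT. Knockout replicate 5 held the highest knockout value, and WT replicates 1 and 2 lay above all knockout libraries. The log2 fold change was -0.55 ± 0.20 (SE; 95% confidence interval -0.96 to -0.14, limma adjusted p = 0.299). Col6a6 over Col6a3, per kilobase, was 0.142 ± 0.0462 in the knockout and 0.269 ± 0.0965 in WT, a log2 difference of -0.90 (exact permutation p = 0.0143, adjusted p = 0.0786 over the 11 ratios; 0.0437 without knockout replicate 5). Knockout replicate 5 was the outlying library of this ratio, at 0.235 with the next knockout library at 0.129. Both genes were among those with the smallest p, in opposite directions, and the ratio was chosen with that seen. Its p-values are thus no independent support. Col6a1 over Col6a2 was 1.13 ± 0.0694 in the knockout and 1.12 ± 0.0772 in WT (exact permutation p = 0.805).

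Col8a1, a short chain that forms open networks under endothelium and in vessel walls, ran over 193, 228 and 284 normalized counts in the knockout and stood at 186, 125, 198 and 209.5 in WT. WT replicates 1 and 2 lay under the knockout range, and the log2 fold change was 0.37 ± 0.13 (SE; 95% confidence interval 0.10 to 0.64, limma adjusted p = 0.300), and 0.21 without WT replicate 2. Its partner Col8a2 was rarer, with a log2 fold change of 0.66 ± 0.46 (SE). Of the transmembrane collagens, Col23a1 had a log2 fold change of 0.37 ± 0.24, Col13a1 of -0.73 ± 0.51 and Col25a1 of -0.74 ± 0.59 (SE). Of the 3, 0 had an unadjusted p below 0.05, against 9.6% of all rows. The log2 fold change of Col26a1 was 0.14 ± 0.56 and that of Col28a1 was -0.29 ± 0.33 (SE).

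Summed over each class, the genotypes overlapped. The 8 fibrillar genes summed to 3039 ± 476 normalized counts in the knockout and 2640.2 ± 359 in WT (SD, n = 6 and 4), the 8 basement membrane genes to 6807 ± 901 in the knockout and 6301 ± 501 in WT, and the 18 others to 1955 ± 156 in the knockout and 1686 ± 139 in WT. The ratios of the means, knockout over WT, were 1.15, 1.08 and 1.16 in that order of classes. The mix of classes stayed close: fibrillar genes held 25.7% ± 1.27 of collagen counts in the knockout and 24.8% ± 1.31 in WT, and basement membrane genes 57.7% ± 1.22 in the knockout and 59.3% ± 1.51 in WT. Among the 19 genes with a mean of at least 50, knockout replicates 1 and 3 held the highest value in 7 genes each, and the lowest values fell to WT replicates 2 and 3 (6 genes each) and to knockout replicates 4 (4 genes) and 5 (3 genes). Low collagen libraries thus occurred in both genotypes.

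**Figure D5:**
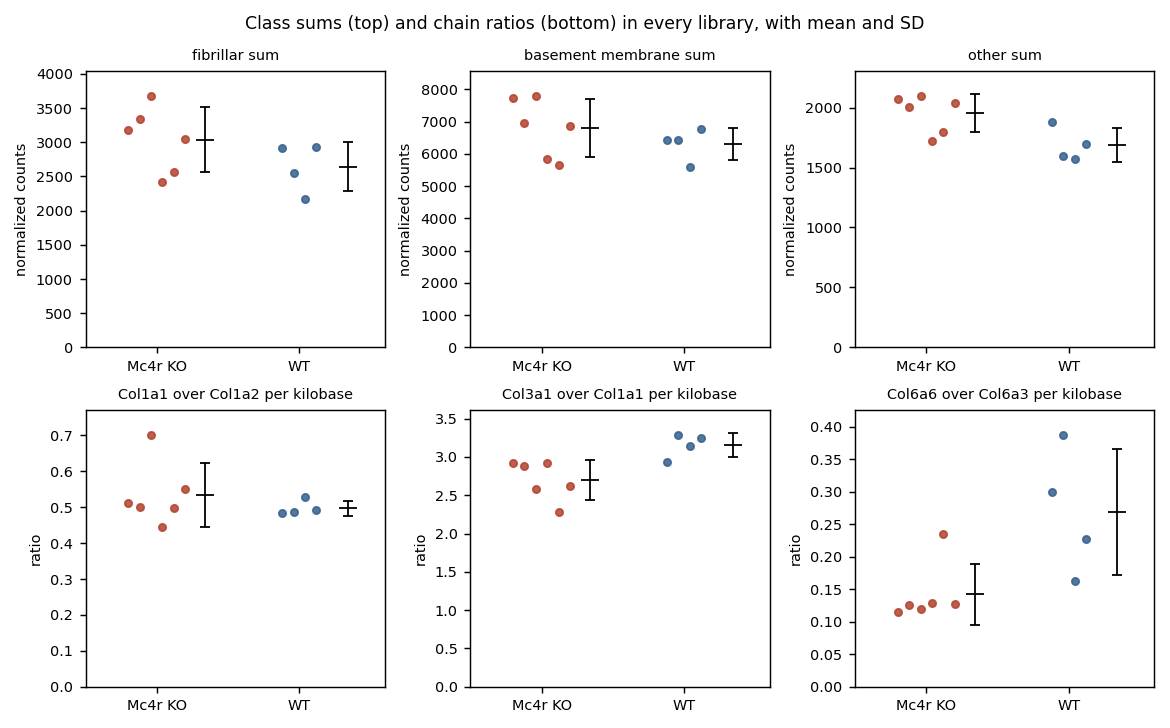
Summed normalized counts of the 3 collagen classes (top) and 3 chain ratios per kilobase (bottom) in every library, with the 6 Mc4r knockout libraries left of the 4 WT libraries and the mean with its SD beside them. The class sums overlap, while Col3a1 over Col1a1 runs from 2.28 to 2.92 in the knockout and from 2.94 to 3.29 in WT.

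Chains become collagen only after hydroxylation, folding, secretion and trimming, and 41 genes of this machinery and of the collagen receptors were read in the same fit. Of these 39 were tested, 25 had a log2 fold change above 0 (64.1%, against 48.4% of all rows) and 14 below. The test was passed by 0, against 0.459% of all rows, and 3 had an unadjusted p below 0.05 (7.69%, against 9.6% of all rows). Their median log2 fold change was 0.07. Of the 13 modifying enzymes, P4ha2, a prolyl 4-hydroxylase subunit, ran over 350.5, 410.0 and 423 normalized counts in the knockout and stood at 344, 339, 314 and 360.1 in WT (0.22 ± 0.08, log2, SE; limma, adjusted p = 0.328). P3h2, a prolyl 3-hydroxylase that acts mainly on collagen IV, ran over 15.3, 24.6 and 34.8 in the knockout and stood at 17.3, 11.7, 5.54 and 22.9 in WT (0.84 ± 0.30, log2, SE; limma, adjusted p = 0.300). WT replicate 4 overlapped the knockout values of both enzymes, and WT replicate 1 those of P3h2. Of the 8 genes of propeptide removal, Pcolce, the enhancer of the C-proteinase, averaged 299 ± 45.8 normalized counts in the knockout and 252 ± 40.1 in WT (SD; limma, adjusted p = 0.508). Bmp1, the C-proteinase itself, averaged 264 ± 29.1 in the knockout and 231 ± 13.8 in WT (SD; limma, adjusted p = 0.529). The 10 chaperone and export genes and the 8 receptors each had 0 members with an unadjusted p below 0.05. Serpinh1, the collagen chaperone Hsp47, averaged 1163 ± 125 normalized counts in the knockout and 1159 ± 131 in WT (SD).

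The markers of cells that make collagens had the following values, and their part in the collagen values was not tested. The fibroblast markers, taken without collagens, were found for 9 of 10 genes. Of the 9, 8 had a log2 fold change above 0, against 48.4% of all rows. The test was passed by 2, against 0.459% of all rows. These were Lum (log2 fold change 0.56 ± 0.10, SE, limma adjusted p = 0.0112) and Mfap5 (0.64 ± 0.14, SE, limma adjusted p = 0.0481). Scara5 was lower in the knockout (-0.22 ± 0.10, log2, SE). The others lay between 0.09 ± 0.18 (Tcf21) and 0.28 ± 0.11 (Pi16). The fibroblast markers summed to between 13461 and 15601 normalized counts in the knockout and between 12110.0 and 14188 in WT. The 6 markers of activated fibroblasts summed to between 833 and 1371 normalized counts in the knockout and between 961 and 1199 in WT. Of the 5 tested, 3 had a log2 fold change above 0, against 48.4% of all rows. Acta2, also a gene of smooth muscle, had the smallest p of the list and averaged 487 ± 113 in the knockout and 658 ± 73.0 in WT (SD; log2 fold change -0.45 ± 0.14, SE; limma, adjusted p = 0.283). Postn averaged 419 ± 66.0 in the knockout and 307 ± 87.6 in WT (SD; limma, adjusted p = 0.512), and Cthrc1, another, was near 0 in all libraries. The log2 fold change of Postn was 0.49 ± 0.21, that of Thbs4 0.68 ± 0.39, that of Comp 0.83 ± 0.74 and that of Ddah1 -0.03 ± 0.17 (SE). The 7 endothelial markers summed to between 10985 and 11940.0 normalized counts in the knockout and between 10908 and 11950.0 in WT, and the 7 pericyte markers to between 9092 and 9853 in the knockout and between 8554 and 11320.0 in WT. Macrophage markers, of cells not known as a main source of collagen, summed to between 1582 and 1915 normalized counts in the knockout and between 1221 and 1532 in WT, without overlap. Among single rows, 2.28% of all had no overlap, a share that cannot be set against a sum of genes. Of the macrophage markers as single rows, C1qb alone had no overlap. Of these 7 genes 6 had a log2 fold change above 0 and 0 passed the test. An unadjusted p below 0.05 was met by 4 of them, against 9.6% of all rows. These were C1qa (0.42 ± 0.11), C1qb (0.47 ± 0.12), C1qc (0.33 ± 0.10) and Mrc1 (0.23 ± 0.09, log2, SE). Csf1r stood at 0.14 ± 0.09, Cd68 at 0.14 ± 0.16 and Adgre1 at -0.03 ± 0.13 (log2, SE).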

How the data were processed

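Polyadenylated RNA of left ventricle was sequenced in 6 Mc4r knockout and 4 WT libraries. The submitters' processing notes name Cuffnorm 2.2.1.1, Cuffdiff 2.2.1.3 and Cufflinks 2.2.1, the aligner TopHat2 2.1.0 with Bowtie2, and build mm10, without the role of each. The authors deposited signal values that are, as they show themselves, gene read counts over a size factor per library: at least 99.986% of values above 0 were whole multiples, within 0.1, of 1 read. The test chosen for log2 values fits this unit.

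Rows carry RefSeq accessions, and 23772 of 24160 had a single symbol. Genotype was tested with limma 3.58.1 in R 4.3.3 (trend and robust) on log2(normalized count + 1), which understates changes of low genes, over 14611 rows with a mean of at least 1; p-values are two-sided with Benjamini-Hochberg adjustment over all rows. Levels per kilobase and coding sequences used GENCODE M21. Collagen members, classes and lists were chosen with earlier results of these data known, so they support no independent test. Genes given in every library are the 3 most abundant per kilobase and the 3 with the smallest p of each class. The ratios, and edgeR 4.0.16 and DESeq2 1.42.0 on recovered reads, were added after the data were seen. The count models used 9 libraries and left out knockout replicate 6, because its value of 1 read, 1.01003, was taken as too close to 1. By the whole-multiple check that library did not stand apart. It had 99.9933% whole multiples, as had knockout replicate 5, which was kept with a value of 1 read of 1.01294. The read numbers of knockout replicate 6 are part of the totals given but not of the count models.

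On simulated data of 14461 rows for this comparison, changes in genes with a mean of at least 50 were found in 50% at 1.3-fold, 80% at 1.5-fold, 98% at 2-fold and 100% at 3-fold, and 12 of 176 calls were false. The simulation capped the spread of the noisiest rows and called more rows than the 67 of the real data. Its rates may thus be too high for noisy genes, and they do not cover the 15 collagens with a mean below 50.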

Additional observations from a re-analysis of the deposited data

Results flagged for a closer look

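A library was singled out when its gap to the nearest value of its group filled most of the range of the group, a rule that chance meets in about 1 of 20 groups; of 110 groups of values examined 7 met it. Col12a1 stood at 30.8 normalized counts in WT replicate 1, the WT library with the most atrial Myl7, with the next WT library at 7.04. Col11a2 stood at 46.9 in WT replicate 2, the library with lymphocyte transcripts, with the next at 15.4. Col9a2 had 2.77 in WT replicate 3 and 0 in the other WT libraries, which is close to single reads. Col6a6 stood at 63.8 normalized counts in knockout replicate 5, the library with the most atrial transcripts, with the next knockout library at 42.3. Col6a6 over Col6a3 per kilobase was 0.235 in that library, with the next at 0.129. Col4a3 over Col4a4 per kilobase was 0.376 in knockout replicate 6, with the next at 0.650. Col6a1 over Col6a2 per kilobase was 1.26 in knockout replicate 4, with the next at 1.12. The cause of these values was not tested.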

How the results depend on the processing

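In every alternative that was run, 0 collagens passed an adjusted p of 0.05. With limma's trend and robust options off 0 of 14611 rows passed, so that setting could call no collagen. In the other alternatives between 19 (edgeR) and 168 (without WT replicate 2 and knockout replicate 5 together) of all rows passed. The 16 genes given in every library kept the sign of their fold change in all 368 fits. They had been picked for abundance or for a small p, and a choice by small p favours a steady sign. The other collagens are not covered by this. DESeq2 gave an adjusted p for only 16 of the 33 collagens it tested. The size held less well, and leaving out 1 library moved the log2 fold change by over 1.5 times in 10 of these 16 genes, in 6 of them (all smaller) without WT replicate 3 and in 5 (all smaller) without WT replicate 2. The class medians stayed above 0, with the basement membrane median between 0.04 and 0.16 over the left-out libraries. The number of collagens with an unadjusted p below 0.05, 11 of 34, was 6 with limma's trend and robust options off and 7 with library weights, and ran from 4 to 14 when each library was left out in turn. The fibrillar count of 3 was 1 without trend and robust, 1 with library weights and 0 without WT replicate 2 and knockout replicate 5 together, and ran from 0 to 4 over the left-out libraries. The basement membrane count of 1 was 0 without trend and robust, 0 by edgeR, 0 by DESeq2 and 2 without WT replicate 2 and knockout replicate 5, with 0 to 2 over the left-out libraries. The count of 7 other collagens ran from 4 to 8. The cause was not tested. A replicate block was fitted over the 8 libraries that share numbers. With it 1 fibrillar gene and 8 of all collagens had an unadjusted p below 0.05, against 9 of all collagens without the block. Same-numbered libraries of the 2 genotypes correlated at -0.153 to -0.0309 and differently numbered ones at -0.160 to 0.267. These values gave no sign of pairing by number, but they cannot show that there was none. With the median transcript length, Col6a6 stood at 7.91 normalized counts per kilobase in place of 5.74. The log2 difference of Col6a1 over Col6a2, near 0, ran from -0.0168 to 0.0583 over the left-out libraries and was -0.0152 without WT replicate 2 and knockout replicate 5. That of Col5a3 over Col5a1 ran from -0.046 to 0.109. The other 9 ratios kept their sign, and those of Col3a1 over Col1a1 and Col6a6 over Col6a3 passed an adjusted p of 0.05 only without knockout replicate 5. Simulated 1.3-fold changes were missed in 50% of genes, so smaller differences may not have been detectable with 6 and 4 libraries.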
